A study of Mus musculus with 9 samples.

Results

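A set of 9 marker genes of the thalamus and the hippocampus was followed across every library of a mouse stroke study. They were picked by symbol, as 5 genes used to mark the thalamus (Tcf7l2, Prkcd, Lhx9, Slc17a6 and Ramp3) and 4 used to mark the hippocampus (Prox1, Wfs1, Dsp and Spink8), out of 55385 gene rows. No measured value entered the choice, although earlier results from these data were known when it was made. The study sequenced total RNA, cleared of ribosomal RNA, from the ischemic brain hemisphere of male C57BL/6 mice of 8 to 10 weeks, in 3 groups of 3 libraries. In the first group a filament blocked the middle cerebral artery for 90 min (tMCAO, transient middle cerebral artery occlusion), and celastrol, a plant triterpenoid, was injected into the peritoneum at 4.5 mg/kg as blood flow returned. The second group, called tMCAO below, had the same occlusion and reperfusion. The third group, sham, went through the surgery with no occlusion. How long after reperfusion tissue was taken, and how many animals went into a library, is not stated in the sources used here. Each p-value therefore measures the spread between these libraries.

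The thalamus relays sensory and motor signals to the cortex and develops from the diencephalon, while the hippocampus belongs to the cortical mantle and serves memory. Their neurons differ from those of neighbouring regions in transcription factors and in the transporters and kinases they carry, so a few genes mark each region. In RNA from a whole piece of tissue such a gene depends on how much of its region the piece holds as well as on each cell's own RNA, and fewer cells of a type and less RNA per cell cannot be told apart.

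The libraries held 60392960 to 75158625 estimated counts, of which mitochondrial genes took 5.80% to 7.39%. Slc17a7, the vesicular glutamate transporter of cortical and hippocampal neurons, lay between 91.7 and 229 FPKM (fragments scaled to transcript length and library size, a level comparable between genes). The GABA receptor gene Gabra6, a marker of cerebellar granule cells, had a count of 0 in each of the 9 libraries, which allows up to 3 counts in each. Other lists of regional genes differed from library to library, and their values stand beside the results they accompany.

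Stretches of 250 bases upstream of the start site are given for 3 members, in the direction of transcription (RefSeq, GRCm38.p6, the assembly also named mm10), because the results below turn on how Tcf7l2, Slc17a6 and Prox1 vary together between libraries. Capitals mark the TAATTA motif, the core bound by many LIM homeodomain factors. The stretches are chr19:55741560-55741809 on the plus strand for Tcf7l2, chr7:51624387-51624636 on the plus strand for the second listed start of Slc17a6, and chr1:190170828-190171077 on the minus strand for Prox1, and none of them overlaps an annotated exon.
Tcf7l2: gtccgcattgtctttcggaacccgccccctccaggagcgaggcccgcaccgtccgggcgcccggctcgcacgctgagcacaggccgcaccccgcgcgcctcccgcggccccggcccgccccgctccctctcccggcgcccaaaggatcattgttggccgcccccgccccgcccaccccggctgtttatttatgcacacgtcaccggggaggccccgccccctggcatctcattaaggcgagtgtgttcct
Slc17a6: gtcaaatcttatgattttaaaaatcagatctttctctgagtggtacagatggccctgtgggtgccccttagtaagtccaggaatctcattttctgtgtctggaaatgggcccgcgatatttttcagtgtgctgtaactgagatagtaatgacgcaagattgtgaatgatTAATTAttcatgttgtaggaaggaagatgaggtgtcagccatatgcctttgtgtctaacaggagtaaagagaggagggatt
Prox1: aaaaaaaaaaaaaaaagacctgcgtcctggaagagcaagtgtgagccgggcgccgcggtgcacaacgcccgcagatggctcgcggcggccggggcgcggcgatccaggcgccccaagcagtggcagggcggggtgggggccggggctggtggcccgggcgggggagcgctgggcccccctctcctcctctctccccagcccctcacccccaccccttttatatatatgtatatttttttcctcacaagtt
The Tcf7l2 stretch was 72.8% G and C, the Prox1 stretch 64.8% and the Slc17a6 stretch 41.2%. Tcf7l2 and Prox1 are shown at their first listed start. The Slc17a6 stretch shown lies inside the gene and is the one that holds the motif. The stretch before the first listed start of Slc17a6, at 53.2% G and C, does not hold it. Windows were found for 8 of the 9 members (not Spink8), 12 windows in all. TAATTA, which reads the same on both strands, was present in 1 of the 12, the Slc17a6 window shown, 81 bases before the start. It was present in 4.84% of 32851 windows of genes at large. These leave out 1 chromosome, which holds none of the members. The TCF/LEF motif ATCAAAG, searched on both strands (CTTTGAT on the other), was present in 0 of the 12 against 3.21% of the same 32851 windows. Such a match describes the letters in the window and says nothing about binding.

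In each group 1 library stood above the other 2 in 3 of the thalamic genes. Tcf7l2 encodes a TCF/LEF transcription factor of Wnt signalling that is kept on in thalamic and habenular neurons and is also found in the oligodendrocyte lineage (ENSMUSG00000024985, chromosome 19, 55741820 to 55933654, plus strand, mm10). Its level was 0.491, 0.289 and 2.42 FPKM in celastrol libraries 1, 2 and 3, 0.439, 6.54 and 0.639 FPKM in tMCAO libraries 1, 2 and 3, and 4.21, 0.393 and 0.492 FPKM in sham libraries 1, 2 and 3. Celastrol library 3, tMCAO library 2 and sham library 1 were high and the other 6 were low, so each group spanned both ranges and the 3 groups overlapped. From the lowest to the highest library the level differed 22.7-fold. The group levels were 1.07 ± 1.18 FPKM with celastrol, 2.54 ± 3.47 FPKM in tMCAO and 1.70 ± 2.18 FPKM in sham (SD, n = 3 each), and no neighbours in that order differed beyond their spread.

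Lhx9, a LIM homeodomain transcription factor of the developing thalamus, split the libraries furthest (ENSMUSG00000019230, chromosome 1, 138825186 to 138848577, minus strand). It had 0.0355, 0.0257 and 1.34 FPKM in celastrol libraries 1 to 3, 0.0924, 2.17 and 0.0721 FPKM in tMCAO libraries 1 to 3, and 1.62, 0.0336 and 0.0572 FPKM in sham libraries 1 to 3. The same library of each group was high. In estimated counts the 3 high libraries held 1086 (celastrol 3), 1665 (tMCAO 2) and 1262 (sham 1), and the other 6 held 20 to 72, an 84.5-fold range in FPKM. The largest gap in log2 CPM (counts scaled to the library total) lay between these 3 libraries and the other 6, at 3.82 for Lhx9 and 1.98 for Tcf7l2.

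Slc17a6 encodes VGLUT2, the transporter that loads glutamate into synaptic vesicles in most excitatory neurons below the cortex (ENSMUSG00000030500, chromosome 7, 51622006 to 51671119, plus strand). Its level was 2.88, 3.15 and 17.4 FPKM in celastrol libraries 1 to 3, 8.27, 25.96 and 3.74 FPKM in tMCAO libraries 1 to 3, and 22.6, 2.85 and 3.23 FPKM in sham libraries 1 to 3. The 3 highest libraries were the ones above. tMCAO library 1 took a middle place for this gene and not for Tcf7l2, with 8.27 FPKM of Slc17a6 and 0.439 FPKM of Tcf7l2. In that library genes of hypothalamic neurons, which also use VGLUT2, were high as well: 8 such genes summed to 172 FPKM there, against 0.831 to 13.7 FPKM in the other 8 libraries, and the part of these cells in the Slc17a6 level was not tested.

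**Figure D1:**
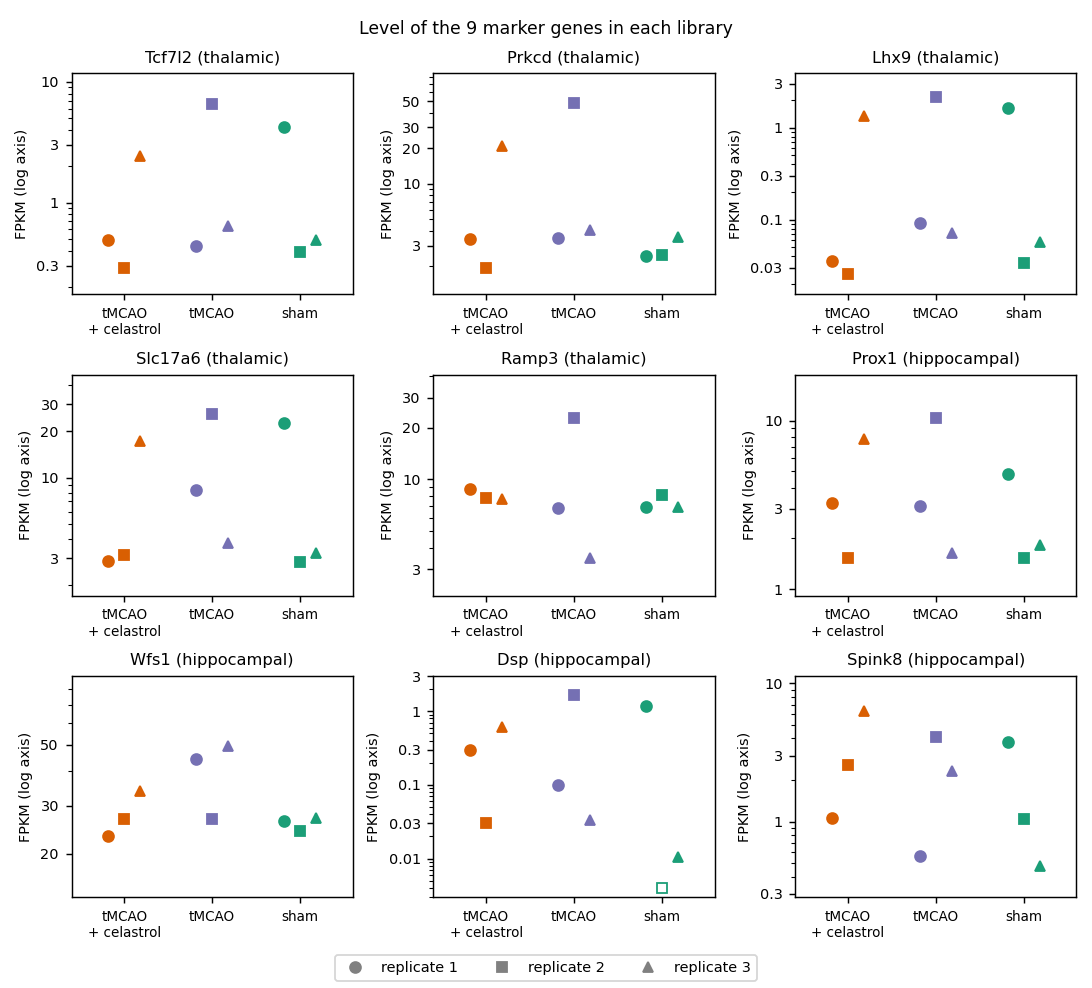
Level of each marker gene in each library, in FPKM on a logarithmic axis that differs between panels. Each symbol is 1 library, grouped from left to right as tMCAO with celastrol, tMCAO and sham, its shape gives the replicate number, and the open square of Dsp is a library with a count of 0 drawn at the foot of the panel. For Tcf7l2 and Lhx9, celastrol library 3, tMCAO library 2 and sham library 1 stand apart from the other 6.

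Prkcd and Ramp3 did not follow that division. Prkcd encodes protein kinase C delta, which is abundant in thalamic relay neurons and is also made in the central amygdala and in myeloid cells (ENSMUSG00000021948, chromosome 14, 30595354 to 30626210, minus strand). It had 3.41, 1.93 and 20.8 FPKM in celastrol libraries 1 to 3, 3.48, 47.7 and 4.08 FPKM in tMCAO libraries 1 to 3, and 2.44, 2.50 and 3.51 FPKM in sham libraries 1 to 3. Celastrol library 3 and tMCAO library 2 were high, whereas sham library 1, which was high in Tcf7l2, Lhx9 and Slc17a6, had the lowest Prkcd level of its group. The group levels were 8.73 ± 10.5 FPKM with celastrol, 18.4 ± 25.4 FPKM in tMCAO and 2.82 ± 0.60 FPKM in sham (SD, n = 3 each). Over 7 myeloid markers, the mean log2 CPM relative to the mean of the 9 libraries was 1.06, −0.04 and 0.53 in celastrol libraries 1 to 3, 0.81, −0.08 and 1.52 in tMCAO libraries 1 to 3, and −1.18, −1.21 and −1.41 in sham libraries 1 to 3. These markers were lowest in sham, as was the Prkcd mean, while their highest library was tMCAO 3 and not tMCAO 2. Their part in the Prkcd level was not tested.

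Ramp3 encodes a receptor activity-modifying protein that pairs with the calcitonin receptor-like receptor and alters which peptides it binds (ENSMUSG00000041046, chromosome 11, 6658521 to 6677475, plus strand). Its level was 8.85, 7.79 and 7.64 FPKM in celastrol libraries 1 to 3, 6.86, 22.7 and 3.50 FPKM in tMCAO libraries 1 to 3, and 6.92, 8.16 and 6.90 FPKM in sham libraries 1 to 3. tMCAO library 2 alone was high and tMCAO library 3 was low, and the other 7 lay between 6.86 and 8.85 FPKM. The group levels were 8.10 ± 0.66 FPKM with celastrol, 11.03 ± 10.3 FPKM in tMCAO and 7.33 ± 0.72 FPKM in sham (SD, n = 3 each).

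Among the hippocampal genes, Prox1, Dsp and Spink8 were highest in the same 3 libraries. Prox1 is a homeobox transcription factor of dentate granule cells and of some interneurons (ENSMUSG00000010175, chromosome 1, 190118035 to 190170714, minus strand). It had 3.27, 1.54 and 7.81 FPKM in celastrol libraries 1 to 3, 3.13, 10.4 and 1.63 FPKM in tMCAO libraries 1 to 3, and 4.82, 1.52 and 1.83 FPKM in sham libraries 1 to 3. Unlike Lhx9 it filled the range between, with celastrol library 1 and tMCAO library 1 at about 3 FPKM. The antisense gene Prox1os overlaps it, with 6 to 177 estimated counts a library against 906 to 7028 for Prox1. The sources used here do not say whether counting used strand, so reads of the overlap cannot be assigned with certainty.

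Dsp encodes desmoplakin, which anchors desmosomes to the cytoskeleton and is made in dentate granule cells as well as in meninges and epithelia (ENSMUSG00000054889, chromosome 13, 38151294 to 38198577, plus strand). It had 224, 23 and 500 estimated counts in celastrol libraries 1 to 3, 79, 1304 and 23 counts in tMCAO libraries 1 to 3, and 930, 0 and 8 counts in sham libraries 1 to 3. In FPKM the highest library of each group stood at 0.608 (celastrol 3), 1.68 (tMCAO 2) and 1.17 (sham 1), and no other library exceeded 0.297. The count of 0 in sham library 2 allows up to 3 counts. Over 8 meningeal markers the mean log2 CPM relative to the mean of the 9 libraries was 0.39, −0.24 and 0.81 in celastrol libraries 1 to 3. It was 0.65, −1.11 and 0.60 in tMCAO libraries 1 to 3, and 0.07, −0.44 and −0.74 in sham libraries 1 to 3. Its highest value was in celastrol library 3 and its lowest in tMCAO library 2, both among the 3 libraries highest in Dsp. Choroid plexus, an epithelium, was high in 2 of the 3 libraries and in others: its 7 markers summed to 1331, 3.64 and 311 FPKM in celastrol libraries 1 to 3, 190, 354 and 5.85 FPKM in tMCAO libraries 1 to 3, and 20.1, 3.54 and 25.9 FPKM in sham libraries 1 to 3. The mean log2 CPM of these markers was below the mean of the 9 libraries in all sham libraries, at −0.49, −1.84 and −0.65. The part of meninges or of choroid plexus in the Dsp level was not tested.

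Spink8, a Kazal-type serine protease inhibitor gene that marks pyramidal cells of CA1 (ENSMUSG00000050074, chromosome 9, 109812280 to 109826633, plus strand), was the least counted member in its highest library. Its level was 1.06, 2.55 and 6.29 FPKM in celastrol libraries 1 to 3, 0.559, 4.09 and 2.32 FPKM in tMCAO libraries 1 to 3, and 3.76, 1.04 and 0.474 FPKM in sham libraries 1 to 3. These values rest on 28 to 441 estimated counts. Celastrol library 3 was highest here, before tMCAO library 2 and sham library 1, and celastrol library 2 and tMCAO library 3 took middle places.

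Wfs1 differed from the other members. It encodes wolframin, a membrane protein of the endoplasmic reticulum that marks CA1 and is also present in cortex, striatum and amygdala (ENSMUSG00000039474, chromosome 5, 36966104 to 36989205, minus strand). Its level was 23.2, 26.9 and 33.9 FPKM in celastrol libraries 1 to 3, 44.4, 26.8 and 49.5 FPKM in tMCAO libraries 1 to 3, and 26.5, 24.2 and 26.97 FPKM in sham libraries 1 to 3. The highest were tMCAO libraries 3 and 1, not the 3 libraries above, and the whole range was 2.14-fold. Wfs1 was also the most abundant member, at 28.0 ± 5.45 FPKM with celastrol, 40.2 ± 11.9 FPKM in tMCAO and 25.9 ± 1.50 FPKM in sham (SD, n = 3 each). The remaining hippocampal genes averaged 4.21 ± 3.24, 5.06 ± 4.69 and 2.73 ± 1.82 FPKM for Prox1 with celastrol, in tMCAO and in sham. For Spink8 these means were 3.30 ± 2.69, 2.32 ± 1.76 and 1.76 ± 1.76 FPKM, and for Dsp 0.312 ± 0.289, 0.603 ± 0.930 and 0.395 ± 0.674 FPKM (SD, n = 3 each).

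For 6 of the 9 members (Tcf7l2, Lhx9, Slc17a6, Prox1, Dsp and Spink8), celastrol library 3, tMCAO library 2 and sham library 1 were the 3 highest of the 9 libraries. Of all 16982 genes tested, 2.82% had the same 3 highest libraries, in any order. These libraries were noticed for their marker levels, so the count is a description. The spread between libraries of 1 group was correspondingly wide, since each group holds 1 of the 3. The within-group SD of log2 CPM was 1.85 for Tcf7l2, 1.61 for Prkcd, 2.90 for Lhx9 and 1.51 for Slc17a6. It was 0.81 for Ramp3, 1.14 for Prox1, 3.32 for Dsp and 1.38 for Spink8, and 0.32 for Wfs1, beside a median of 0.28 over all genes tested. Lhx9 and Dsp exceeded 99.7% and 99.9% of genes in this SD, and Wfs1 56.4%. The share of variance in log2 CPM that lay between the groups was below the median gene's 27.6% for 8 of the 9 members and reached 42.5% for Wfs1.

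**Figure D2:**
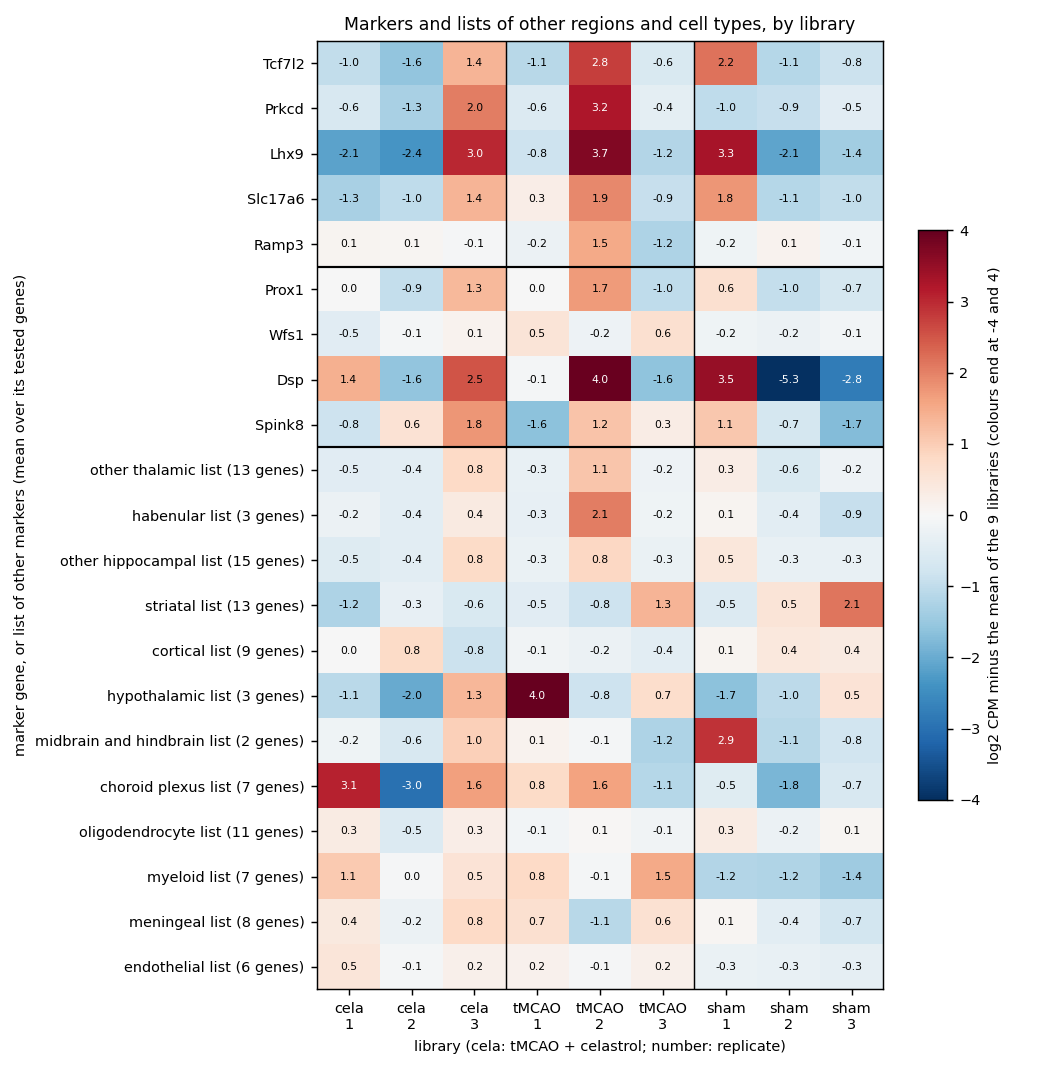
Difference of log2 CPM in each library (columns: tMCAO with celastrol, tMCAO, sham) from the mean of the 9 libraries, for each marker gene and, in the lower rows, as the mean over lists of other region and cell type markers. Red is above and blue below the mean, and the lists of other thalamic and hippocampal genes are highest in tMCAO library 2 (1.11 and 0.84) and celastrol library 3 (0.79 and 0.76), followed by sham library 1 (0.29 and 0.46).

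Some further genes of the 2 regions, which are no members, had the same 3 highest libraries. Of 15 other thalamic genes, 13 passed the filter of at least 0.5 FPKM in at least 3 libraries, and 5 of these had celastrol library 3, tMCAO library 2 and sham library 1 as their 3 highest: Ntng1, Lef1, Synpo2, Tnnt1 and Calb2. Ntng1, the netrin-G1 gene of thalamocortical axons, had 1.51, 2.37 and 10.1 FPKM in celastrol libraries 1 to 3, 1.46, 7.54 and 2.82 FPKM in tMCAO libraries 1 to 3, and 7.35, 2.63 and 2.40 FPKM in sham libraries 1 to 3. Of 16 other hippocampal genes, 15 passed the filter and 5 had these 3 libraries highest, among them C1ql2, Lct, Fibcd1 and Amigo2. C1ql2, which encodes a synaptic C1q-like protein of dentate granule cells, had 0.626, 0.180 and 8.69 FPKM in celastrol libraries 1 to 3, 2.55, 11.3 and 0.304 FPKM in tMCAO libraries 1 to 3, and 6.82, 0.133 and 0.219 FPKM in sham libraries 1 to 3. Other genes of the lists had other libraries highest, such as Rgs14, a signalling regulator of CA2 neurons, which was highest in sham library 2 at 12.3 FPKM. Of the thalamic list, 8 of 13 were highest in tMCAO library 2, and of the hippocampal list 5 of 15. The share of all genes that were highest in that library was not taken, so these counts are a description. Rgs14 was chosen after its values were seen.

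The 3 libraries were not alike in markers of other regions. The habenular genes were mixed: Gpr151, an orphan receptor of habenular neurons, reached 7.15 FPKM in tMCAO library 2 against 0.124 to 1.46 FPKM in the other 8 libraries. Pou4f1, a transcription factor of the medial habenula, was high in sham library 1 as well, at 1.11 FPKM beside 1.32 FPKM in tMCAO library 2. Nwd2 had 4.79 FPKM in tMCAO library 2, below the 4.83 to 7.82 FPKM of the sham libraries. Sham library 1 stood out in Tph2, the serotonin-synthesis enzyme of the raphe, at 11.8 FPKM against 0.056 to 0.578 FPKM elsewhere. Celastrol library 3 stood out in Slc6a3, the dopamine transporter of midbrain neurons, at 15.3 FPKM, with 1.42 FPKM in sham library 1 and at most 0.358 FPKM in the other 7. These genes were singled out after their values were seen.
Striatal genes were high in other libraries. Over 13 striatal genes the mean log2 CPM was 2.13 above that of the 9 libraries in sham library 3, 1.35 in tMCAO library 3 and 0.53 in sham library 2, and below it in the other 6, among them the 3 with high Tcf7l2. Over 9 cortical genes it was 0.76 in celastrol library 2 and −0.85 in celastrol library 3. Oligodendrocyte genes, of the lineage that also makes Tcf7l2, ran from −0.54 in celastrol library 2 to 0.33 in sham library 1 over 11 genes, beside a range of −1.59 to 2.77 for Tcf7l2 itself.

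Tests of the groups were made on the estimated counts of all 16982 genes that passed the filter, with edgeR's quasi-likelihood test and Benjamini-Hochberg adjustment. All 9 members passed the filter, Lhx9 and Dsp in exactly 3 libraries, 1 of each group. The 3 comparisons share their groups, so they are not independent of each other. In tMCAO against sham, 0 of the 9 members passed an adjusted p of 0.05, where 0% of all genes did (2534 genes had an unadjusted p under 0.05, and DESeq2 called 836). In celastrol against tMCAO it was again 0 of 9, beside 0% of all genes (698 genes at an unadjusted p under 0.05, and 19 by DESeq2). In celastrol against sham it was 0 of 9, beside 0.00589% of all genes (1445 genes at an unadjusted p under 0.05, and 380 by DESeq2). The libraries of the compared groups overlapped for every member in each comparison, whereas 12.4% of all genes lay higher and 11.1% lower with no overlap in tMCAO against sham. Those shares were 3.73% and 4.13% in celastrol against tMCAO, and 7.89% and 5.54% in celastrol against sham.

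In tMCAO against sham the log2 fold changes of the thalamic genes were 0.52 ± 1.27 (SE) for Tcf7l2, 2.62 ± 1.17 for Prkcd, 0.41 ± 1.90 for Lhx9, 0.35 ± 1.04 for Slc17a6 and 0.51 ± 0.56 for Ramp3. Prkcd came closest to the threshold among them, with an edgeR adjusted p of 0.341, and its value was 0.32 without tMCAO library 2. Its high mean in tMCAO came from 1 library, as the other 2 had 3.48 and 4.08 FPKM beside 2.44 to 3.51 FPKM in sham. The hippocampal genes had log2 fold changes of 0.82 ± 0.78 for Prox1, 0.54 ± 0.22 for Wfs1, 0.57 ± 1.96 for Dsp and 0.32 ± 0.92 for Spink8. Wfs1 had the smallest standard error and an edgeR adjusted p of 0.317, and it was higher in 2 of 3 tMCAO libraries than in any sham library. All 9 values were positive, and their direction is not independent between genes that vary together across the libraries.

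In celastrol against tMCAO the log2 fold changes were −1.23 ± 1.29 (SE) for Tcf7l2, −1.06 ± 1.11 for Prkcd, −0.72 ± 1.91 for Lhx9, −0.67 ± 1.04 for Slc17a6 and −0.42 ± 0.56 for Ramp3. They were −0.25 ± 0.78 for Prox1, −0.47 ± 0.22 for Wfs1, −0.95 ± 1.97 for Dsp and 0.55 ± 0.92 for Spink8. None passed, with edgeR adjusted p-values of 0.976 to 0.989. In celastrol against sham the values were −0.70 ± 1.28 for Tcf7l2, 1.56 ± 1.13 for Prkcd, −0.32 ± 1.90 for Lhx9, −0.32 ± 1.04 for Slc17a6 and 0.09 ± 0.56 for Ramp3. They were 0.57 ± 0.78 for Prox1, 0.07 ± 0.22 for Wfs1, −0.38 ± 1.96 for Dsp and 0.87 ± 0.93 for Spink8, with edgeR adjusted p-values of 0.770 to 0.979. For Tcf7l2, Lhx9, Slc17a6, Ramp3, Dsp and Spink8 the standard error exceeded the size of the fold change in each of the 3 comparisons. Lhx9 and Dsp had the largest standard errors, at 1.90 to 1.97. For these 2 genes a change of several-fold in either direction could go undetected.

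**Figure D3:**
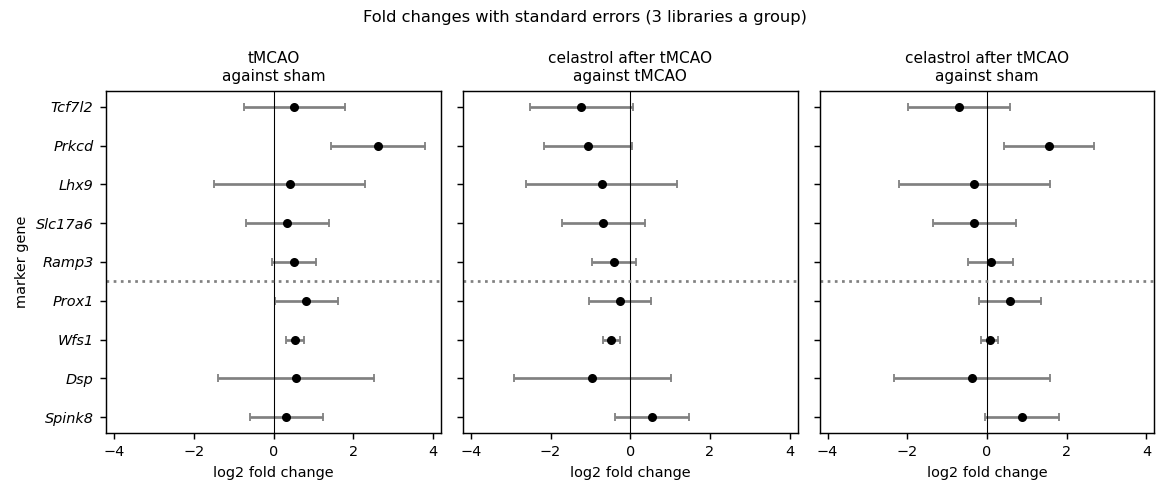
Log2 fold change of each marker gene from edgeR in tMCAO against sham, celastrol after tMCAO against tMCAO, and celastrol after tMCAO against sham, with bars of 1 standard error (3 libraries a group). None passed the adjusted threshold, and the bars of Lhx9 and Dsp are the widest, at 1.90 to 1.97.

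The direction of the thalamic genes turned with single libraries. Their median log2 fold change in tMCAO against sham was 0.51 (0.01 over all genes), but −0.74 without tMCAO library 2 and 2.40 without sham library 1. In celastrol against tMCAO it was −0.72 (−0.00 over all genes), but −2.67 without celastrol library 3 and 1.02 without tMCAO library 2. It was −0.32 in celastrol against sham (0.00 over all genes), but −1.68 without celastrol library 3 and 1.28 without sham library 1. The hippocampal median was 0.55, −0.36 and 0.32 in the same 3 comparisons. It ran from −0.33 without tMCAO library 2 to 1.49 without sham library 1 in the first, from −0.84 without celastrol library 3 to 1.05 without tMCAO library 2 in the second, and from −0.17 without celastrol library 3 to 1.63 without sham library 1 in the third. None of the 9 members was called in any of the 20 other fits, in which the smallest adjusted p of a member was 0.139. Dsp was too low to be tested in the fit of genes with an FPKM of at least 1.
With celastrol library 3, tMCAO library 2 and sham library 1 all left out, an alternative chosen after seeing the data, the thalamic medians were 0.22 in tMCAO against sham, −0.46 in celastrol against tMCAO and −0.25 in celastrol against sham. The hippocampal medians were then 0.78, 0.22 and 0.81. That of Dsp in celastrol against sham became 4.63 on the log2 scale, from 224 and 23 counts with celastrol and 0 and 8 counts in sham.

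**Figure D4:**
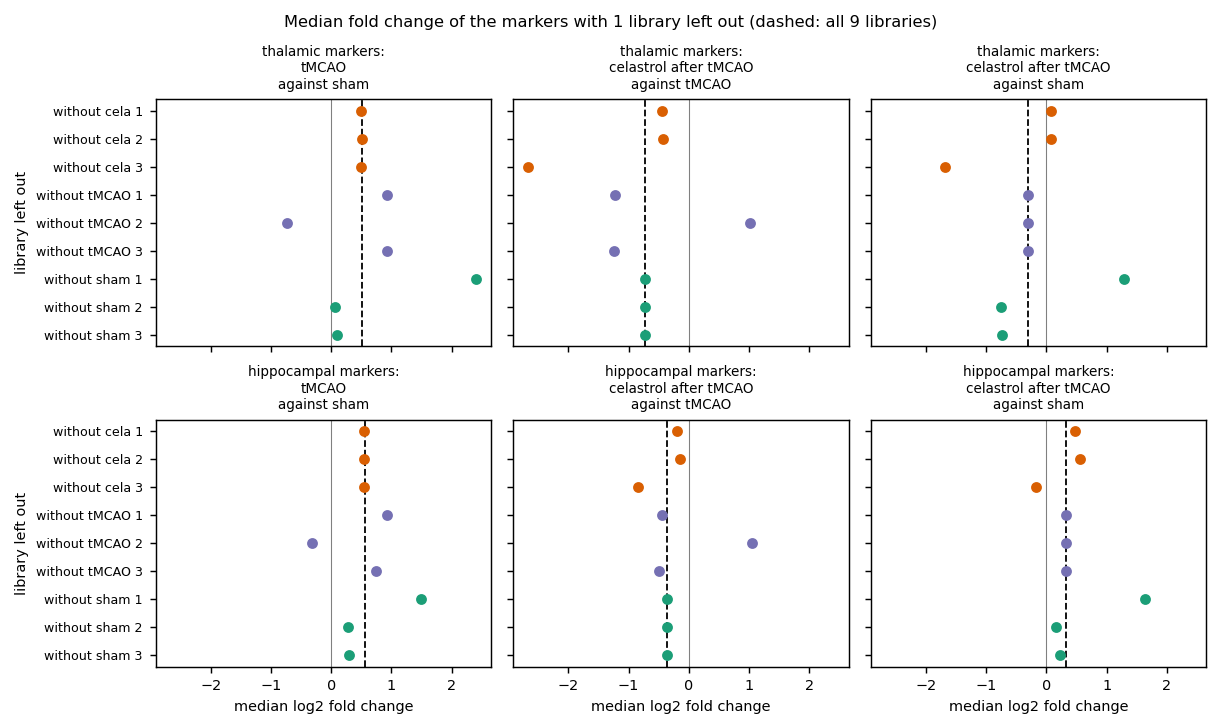
Median log2 fold change over the 5 thalamic genes (upper row) and the 4 hippocampal genes (lower row) when 1 library is left out of the edgeR fit, with the value for all 9 libraries as a dashed line. Each point is 1 fit, coloured by the group of the library left out, and the thalamic median in tMCAO against sham runs from −0.74 without tMCAO library 2 to 2.40 without sham library 1.

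Across the 9 libraries the thalamic genes had a median Pearson r of 0.69 over their 10 pairs (median Spearman rho 0.54), with r from 0.42 for Lhx9 and Ramp3 to 0.98 for Tcf7l2 and Lhx9. Since Tcf7l2 and Lhx9 divide the libraries into 3 and 6, these values describe that division and were not read as a relation. Over the other 6 libraries the median was 0.10, and without the 2 libraries farthest from the median of the first gene of each pair it was −0.02. By that second measure the medians were 0.46 for mixed pairs and 0.32 for hippocampal pairs. That measure depends on which gene of a pair comes first, and leaving out 2 libraries cannot remove a division made by 3. With Tcf7l2 or Lhx9 first, tMCAO library 2 and sham library 1 were left out and celastrol library 3 stayed. With Prkcd first, tMCAO library 2 and celastrol library 3 were left out and sham library 1 stayed. Tcf7l2 still had an r of 0.96 with Lhx9, 0.80 with Slc17a6 and 0.99 with Prkcd, and Lhx9 0.93 with Slc17a6. The pairs of Ramp3, and those of Prkcd with Lhx9 and Slc17a6, lay between −0.56 and 0.02. Over all 9 libraries Prkcd had an r of 0.71 with Tcf7l2, 0.71 with Lhx9 and 0.66 with Slc17a6. Between thalamic and hippocampal genes the median over 20 pairs was 0.63, and 0.19 over the other 6 libraries. Over the 6 hippocampal pairs it was 0.27, and 0.02 over the other 6 libraries. Prox1 and Dsp, both made in the dentate gyrus, had an r of 0.88, and Prox1 and Wfs1 −0.17. The first value was not particular to that pair. With thalamic genes Prox1 had an r of 0.90 (Lhx9), 0.89 (Slc17a6), 0.88 (Tcf7l2), 0.82 (Prkcd) and 0.62 (Ramp3). Deviations from the group means gave medians of 0.71 for thalamic pairs, 0.68 for the mixed pairs and 0.26 for hippocampal pairs, close to those over all libraries.

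Of 15217 genes with a mean of at least 1 CPM, those most like each member over the 9 libraries were found by Pearson r of log2 CPM, as a description that rests on the same high libraries. Tcf7l2 was most like Cbln1, a secreted organizer of synapses (r = 0.99), Minar1 (0.99) and Chrna3, a nicotinic receptor subunit of the habenula (0.98). Cbln1 had 1.89, 1.46 and 5.25 FPKM in celastrol libraries 1 to 3, 2.35, 10.0 and 2.00 FPKM in tMCAO libraries 1 to 3, and 8.21, 1.86 and 1.85 FPKM in sham libraries 1 to 3. Lhx9 was most like Cbln1 (0.98), Minar1 (0.98) and Tcf7l2 (0.98), and Slc17a6 most like Lhx9 (0.97), Pgm1 (0.96) and Cbln1 (0.96). Prkcd kept other company, with Plekhg1 (0.93), which is also on the thalamic list, Vangl1 (0.92) and Arid2 (0.91). Plekhg1 had 3.30, 2.09 and 5.93 FPKM in celastrol libraries 1 to 3, 1.61, 9.45 and 2.29 FPKM in tMCAO libraries 1 to 3, and 2.13, 1.62 and 1.96 FPKM in sham libraries 1 to 3, and like Prkcd it lay in sham library 1 close to the other sham libraries. Ramp3 was most like Asb8 (0.92), Rgl2 (0.92) and Zup1 (0.90).
Prox1 was most like Cabp7, a calcium-binding protein gene (0.98), A330074K22Rik (0.95) and Amigo2, a cell adhesion gene of the hippocampus (0.95). Cabp7 had 12.2, 5.14 and 36.2 FPKM in celastrol libraries 1 to 3, 14.5, 45.4 and 7.93 FPKM in tMCAO libraries 1 to 3, and 23.2, 6.93 and 5.68 FPKM in sham libraries 1 to 3. Dsp was most like Akain1 (0.97), Ttc39a (0.97) and Kif13a (0.96), Spink8 most like Nudt9 (0.94), Tmem135 (0.94) and Prune2 (0.92), and Wfs1 most like Pwp1 (0.94), Fsd1l (0.92) and Ranbp1 (0.91).

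Over the lists of related genes edgeR called 0 genes in any comparison, where it called 0%, 0% and 0.00589% of all genes in the 3 comparisons, so these counts say nothing particular about the lists. The other thalamic genes had median log2 fold changes of 0.43 in tMCAO against sham, −0.12 in celastrol against tMCAO and 0.31 in celastrol against sham. In the first, 10 of 13 were positive, from Amotl1 (1.19 ± 0.36, SE; edgeR adjusted p = 0.215) to Ntng1 (−0.14 ± 0.82), and the median turned to −0.07 with 1 library left out. The other hippocampal genes had medians of 0.23, −0.11 and 0.01 in these comparisons, which ran from −0.24 to 0.42, −0.62 to 0.34 and −0.63 to 0.38 with 1 library left out. Single genes ran from C1ql2 (0.93 ± 1.77) to Trpc6, a cation channel (−0.80 ± 0.29; edgeR adjusted p = 0.270), in the first.
Partners of the members in their pathways or families were read from the same fit. The TCF/LEF and Wnt genes related to Tcf7l2 (Lef1, Tcf7, Tcf7l1, Ctnnb1 and Axin2) had medians of 0.03, −0.12 and −0.15 in the 3 comparisons. Calcrl, the receptor that Ramp3 pairs with, lay between 0.936 and 1.89 FPKM in all 9 libraries, and the list of Ramp3 partners, in which Adm, the gene of the peptide adrenomedullin, was highest (1.89 ± 0.44 in tMCAO against sham; edgeR adjusted p = 0.143), had medians of 0.37, −0.21 and 0.28. The other vesicular glutamate transporters, Slc17a7 and Slc17a8, had medians of −0.29, −0.12 and −0.41. Protein kinase C genes other than Prkcd had medians of −0.37, 0.12 and −0.30. Desmosome and keratin genes related to Dsp had 0.43, 0.53 and 0.96, over the 3 of 6 listed genes that passed the filter. In tMCAO against sham these were Krt18, a keratin gene with a count of 0 in sham library 2 (4.55 ± 1.96), Pkp2 (0.43 ± 0.50) and Jup (0.18 ± 0.22). Endoplasmic reticulum stress genes related to Wfs1 had medians of 0.09, 0.10 and 0.21. None of these 9 stress genes had tMCAO libraries 3 and 1 as its 2 highest, as Wfs1 did. The share of all genes with these 2 libraries highest was not taken, so that count says nothing particular about the stress genes. Hspa5, the main chaperone of that compartment, had 61.6 FPKM in tMCAO library 1, 69.6 FPKM in tMCAO library 3 and 84.9 FPKM in sham library 3.

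Lists of other regions and cell types in the same tissue, which move with the members in some libraries, also had 0 genes called by edgeR, against the same 0%, 0% and 0.00589% of all genes. Median log2 fold changes in tMCAO against sham, celastrol against tMCAO and celastrol against sham were 0.94, −1.49 and −0.56 for habenular genes, −0.68, −1.08 and −1.71 for striatal genes and −0.68, 0.49 and −0.09 for cortical genes. They were 2.19, −2.09 and 0.22 for the 3 hypothalamic genes that passed the filter, −1.84, 0.59 and −1.26 for 2 midbrain and hindbrain genes, and −0.14, 0.24 and −0.07 for genes of caudal interneurons, some of which use Prox1. For choroid plexus they were 0.99, 1.23 and 2.55, for myeloid cells 1.09, −0.32 and 0.77, for oligodendrocytes −0.09, 0.11 and −0.16, for endothelium 0.44, 0.07 and 0.58, and for meninges 0.66, 0.06 and 0.56. With 1 library left out, the endothelial median alone among these 11 lists kept its sign in all 3 comparisons. Myeloid, choroid plexus and meningeal medians kept theirs in both comparisons against sham and turned in celastrol against tMCAO. They ran from 0.62 to 1.40, 0.73 to 2.10 and 0.40 to 1.02 in tMCAO against sham. The cortical median kept its sign in tMCAO against sham and in celastrol against tMCAO, and turned in celastrol against sham. The striatal median kept its sign in celastrol against sham, from −2.16 to −0.83, and turned in tMCAO against sham and in celastrol against tMCAO. In tMCAO against sham the habenular median ran from −1.04 to 2.19, the striatal from −1.63 to 0.18, the hypothalamic from 0.12 to 4.18 and that of midbrain and hindbrain from −2.27 to 0.86. In celastrol against tMCAO the habenular median ran from −1.96 to 0.25 and that of choroid plexus from −0.59 to 1.91, and in celastrol against sham the habenular median ran from −0.92 to 0.70. The part of any of these tissues in the levels of the 9 marker genes was not tested beyond the values given beside them.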

How the data were processed

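Per the file headers, the authors deposited 1 table with an FPKM value and an estimated count per gene and library, and per the labels' protocols ribosomal RNA was removed with Ribo-Zero Gold. The submitters' processing notes name cutadapt 1.9, HISAT2 2.0.4, StringTie 1.3.4d, edgeR, DESeq2 and mm10, without settings. The sources used here do not say whether strand was used in counting. The deposited estimated counts are whole numbers and were used unchanged, 0 rows lacked a gene name, and a count of 0 is written as 0.0001 FPKM. Where a symbol is on several rows (118 symbols), the row with the highest mean was taken. All 9 member intervals matched GENCODE M21, and 5 members overlap another row.

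Genes with at least 0.5 FPKM in at least 3 of 9 libraries were tested (16982). The fit took all libraries together, a mean for each group and TMM factors. It used the quasi-likelihood functions glmQLFit and glmQLFTest of edgeR 4.0.16 under R 4.3.3 (common dispersion 0.0963, tests two-sided), with Benjamini-Hochberg adjustment over all genes and a threshold of 0.05. Approximate standard errors were taken as the log2 fold change over the root of F. Log2 CPM used a prior count of 2. Alternatives were limma 3.58.1 on log2(FPKM + 0.5) or with 0.1, DESeq2 1.42.0, other scalings and filters, the 2 groups alone, the replicate number as a block, and each library left out with the same genes tested. Depth was 60392960 to 75158625 estimated counts a library, and limits from a count of 0 cover counting error only.

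The members and the gene lists were chosen with earlier results of these data known. Genes named were the 9 members, the list genes with the largest and smallest fold change or past the threshold, and the 3 genes most like each member, and others, among them Gabra6, Calcrl and Hspa5, were chosen after their values were seen.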

Additional observations from a re-analysis of the deposited data

How the results depend on the processing

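None of the 9 members was called in the 20 other fits, and their direction was the same in 284 of 294 values that used another setting and in 208 of 243 that left out 1 library. The 294 hold no value for Dsp at an FPKM of at least 1, where it was too low to be tested. The 243 include fits that left out a library of the group not compared. Such a fit alters the fold change only through the shared scaling and spread, so 208 of 243 overstates how stable the directions were. Genes called in tMCAO against sham (0) numbered 2 by limma with 0.1 FPKM added, 836 by DESeq2, 29 with the 2 groups alone, 51 with the replicate block and 2 with the newer quasi-likelihood form. In celastrol against tMCAO (0) they numbered 19 by DESeq2 and 2 without the 3 high libraries. In celastrol against sham (1) they numbered 3 by limma with 0.1 added, 380 by DESeq2, 3 with no filter, 2 at an FPKM of at least 1, 4 with 2 groups alone, 22 with the block, 6 with the newer form and 0 without the 3 libraries. Replicate numbers did not pair the libraries (r of deviations −0.16 to 0.20 for equal and −0.26 to 0.23 for unequal numbers), so the block shows only a shared number. Dsp in celastrol against sham turned to 0.044 and 0.46 by limma with 0.5 and 0.1 added and to 1.39 with the block. Without celastrol library 3, tMCAO library 2 and sham library 1, chosen after seeing the data, these turned: Ramp3 to −0.65 in tMCAO against sham; Ramp3 to 0.73, Prox1 to 0.036 and Dsp to 1.27 in celastrol against tMCAO; Prkcd to −0.25, Wfs1 to −0.085 and Dsp to 4.63 in celastrol against sham. The median r was then 0.10 for thalamic and 0.19 for mixed pairs, and with 1 library left out the thalamic one ran from 0.45 to 0.91. With 1 library left out, genes called ran from 0 to 91 (91 without celastrol library 2), 0 to 2 and 0 to 46 in the 3 comparisons. In tMCAO against sham the log2 fold change then ran from −1.73 to 2.40 for Tcf7l2, −2.83 to 3.98 for Lhx9, −0.74 to 1.96 for Slc17a6, −0.60 to 0.92 for Ramp3, −0.28 to 1.49 for Prox1, −2.60 to 6.52 for Dsp and −0.38 to 1.48 for Spink8, and the thalamic median from −0.74 to 2.40. In celastrol against tMCAO it ran from −2.67 to 1.02 for Tcf7l2, −2.76 to 1.24 for Prkcd, −4.57 to 2.52 for Lhx9, −2.03 to 0.42 for Slc17a6, −0.84 to 0.68 for Ramp3, −1.06 to 0.85 for Prox1, −1.89 to 2.22 for Dsp and −0.30 to 1.25 for Spink8, the thalamic median from −2.67 to 1.02 and the hippocampal one from −0.84 to 1.05. In celastrol against sham it ran from −2.15 to 1.17 for Tcf7l2, −0.15 to 2.03 for Prkcd, −4.17 to 3.26 for Lhx9, −1.68 to 1.28 for Slc17a6, −0.24 to 1.24 for Prox1, −0.092 to 0.21 for Wfs1 and −1.33 to 5.57 for Dsp, the thalamic median from −1.68 to 1.28 and the hippocampal one from −0.17 to 1.63. The cause was not tested, beyond the library values that each such fit leaves out. Dsp, at 0 and 8 counts in 2 sham libraries, has fold changes that depend on the prior count once sham library 1 is left out.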

Other observations

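The values below belong to no comparison and were singled out after they were seen. Rora, a nuclear receptor gene of thalamus and cerebellum on the thalamic list, had 5.97, 6.25 and 7.41 FPKM in celastrol libraries 1 to 3 and 5.64, 11.95 and 3.82 FPKM in tMCAO libraries 1 to 3. In sham libraries 1 to 3 it had 6.50, 0.487 and 4.72 FPKM, so sham library 2 alone was below 1 FPKM.

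The peptide genes Pmch, Avp, Oxt and Hcrt of hypothalamic neurons stood at 85.6, 39.5, 21.03 and 19.8 FPKM in tMCAO library 1. In the other 8 libraries Avp, Oxt and Hcrt did not exceed 0.829, 0.735 and 0.756 FPKM, and Pmch was at 11.2 FPKM in celastrol library 3 and at most 0.800 FPKM elsewhere. Ttr, which encodes the transthyretin of choroid plexus, was at 1300 FPKM in celastrol library 1 and at 1.09 FPKM in tMCAO library 3.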
